A study of Sus scrofa with 36 samples.

Results

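The 10 genes described here are those of MHC class I antigen presentation on the pig array: the class I heavy chain genes SLA-1, SLA-2, SLA-3, SLA-6, SLA-7 and SLA-8, the class I-related gene MIC-2, the light chain gene B2M and the peptide transporter genes TAP1 and TAP2. Their probes were chosen by gene name alone, but the list of names was drawn up with earlier results of these same arrays in view, and which comparison led to it is not recorded. The adjusted p-values below therefore describe these pigs and are no independent evidence for the list. Of the 10 genes, 9 had at least 1 probe, against 11079 genes with a current symbol on the whole array. SLA-2 had no probe of its own. The 9 genes had 41 probes, of which 40 were bright enough to be tested. The exception was the second SLA-6 probe, A_72_P260597, which was well above background on 11 of 36 arrays.

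Thyroid glands came from 36 growing castrated pigs, each hybridized to 1 array. The pigs belonged to 3 breeds, Creole (CR), Large White (LW) and their F1 cross, and to 2 labelled temperatures, 24 and 30 °C, which gave 6 groups of 6 pigs. The protocol text gives the hot condition as 32 °C for 5 days, and the 24 °C pigs were slaughtered before it began, so temperature and time of slaughter cannot be told apart. By the study's methods each breed was made up of 3 blocks of littermates. The labels do not say which pigs were littermates, so breed and family cannot be told apart, and the errors and p-values, which count every pig as independent, may be too small. TG, which codes for thyroglobulin, the storage protein of the thyroid follicle, lay between 18.15 and 19.09 on the log2 scale in all 36 pigs. RNA came from whole gland, so more cells of a type and more RNA per cell cannot be told apart.

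Almost every nucleated cell shows peptides of its own proteins on class I molecules. A heavy chain from the MHC pairs with B2M, the TAP1 and TAP2 transporter carries peptides into the endoplasmic reticulum, and loaded molecules go to the cell surface, where CD8 T cells read them. In the pig, SLA-1, SLA-2 and SLA-3 are the classical and highly polymorphic heavy chain genes, SLA-6, SLA-7 and SLA-8 are non-classical, and MIC genes code for stress-related ligands of an activating receptor on natural killer cells. In the RefSeq table for Sscrofa11.1, 9 of the 10 genes were listed, and 8 of them lay on chromosome 7, the chromosome of the pig MHC. B2M lay on chromosome 1. MIC-2 was not among the listed names.

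Each probe is a single strand of 60 bases, and a polymorphic gene can be read well or badly by one probe depending on the allele. Transcript amount and match to the probe cannot be told apart on an array, and for that reason the probes of a gene are given separately. The sequences of the probes on which the MIC-2 and SLA-6 results rest are shown first, in lower case throughout, 5′ to 3′. By the array files the MIC-2 probes start at base 589 and base 712 of the same transcript, so they do not overlap, and the SLA-6 probe starts at base 378 of its transcript.
MIC-2 A_72_P555381: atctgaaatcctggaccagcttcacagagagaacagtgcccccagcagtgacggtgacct
MIC-2 A_72_P172941: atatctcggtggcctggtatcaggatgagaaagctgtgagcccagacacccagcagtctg
SLA-6 A_72_P237292: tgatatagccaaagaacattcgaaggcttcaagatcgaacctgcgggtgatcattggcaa

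Classical class I genes resemble each other, and the array shows it. A pair of probes, one named for SLA-1 and one for SLA-3, shared 59 aligned bases with 4 mismatches. Capitals mark the bases at which they differ, and counted from the 5′ end of the SLA-1 probe the substitutions were G7C, G18T, G19A and C39G. Both probes also list the SLA-2 transcript among those they match, as does SLA-3 A_72_P683231, so these 3 probes may read more than the gene they are named for. The probe with the largest breed difference, SLA-3 A_72_P517623, lists only the SLA-3 RefSeq transcript, and the 2 SLA-8 probes shown are those that differed between LW and CR.
SLA-1 A_72_P440391: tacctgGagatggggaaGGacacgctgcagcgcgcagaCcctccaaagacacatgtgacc
SLA-3 A_72_P440386: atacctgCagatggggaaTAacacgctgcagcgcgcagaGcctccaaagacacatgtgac
SLA-3 A_72_P683231: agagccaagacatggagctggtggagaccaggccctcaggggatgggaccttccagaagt
SLA-3 A_72_P517623: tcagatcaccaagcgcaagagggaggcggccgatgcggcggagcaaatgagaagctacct
SLA-8 A_72_P070231: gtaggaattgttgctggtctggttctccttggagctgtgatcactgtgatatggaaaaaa
SLA-8 A_72_P517672: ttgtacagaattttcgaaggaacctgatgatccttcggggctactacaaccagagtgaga

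Among all 41 member probes, 7 pairs overlapped by at least 40 bases with at most 6 mismatches, 6 of them within a gene. Overlapping probes are not separate evidence. The pairs within a gene included SLA-3 A_72_P609764 with A_72_P515992, which differed at A27C and G57A over 57 bases, and SLA-3 A_72_P682906 with A_72_P625308, which were identical over 42 bases. Another custom SLA-1 probe, CUST_238, carries a description of a different gene (PDZ and LIM domain 7) but shares 58 bases with the brightest SLA-1 probe apart from C58A, and it is kept under the gene name that the files give.

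On the log2 scale of the normalized intensities the brightest SLA-1 probe, CUST_30, averaged 17.82 ± 0.20 (SD, n = 36), and the brightest B2M probe, CUST_232, averaged 17.14 ± 0.23 (SD, n = 36). SLA-7 read 6.50 ± 0.13 (SD, n = 36) on its single probe. Levels of different probes are not compared, because each probe binds with its own strength. Within groups the member probes varied more than most probes did, with a median SD of 0.29 against 0.18 over all tested probes, and SLA-1 A_72_P124686 (within-group SD 0.85) and SLA-3 A_72_P515992 (0.76) varied most.

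MIC-2 separated the F1 pigs from both parental breeds, and it did so in some of the F1 pigs only. On probe A_72_P555381 the CR pigs ranged from 7.79 to 8.40 (median 8.23) at 24 °C and from 7.86 to 8.49 (median 8.25) at 30 °C. The LW pigs ranged from 7.96 to 8.33 (median 8.30) at 24 °C and from 7.73 to 8.25 (median 8.23) at 30 °C. The F1 pigs ranged from 8.14 to 9.70 (median 8.91) at 24 °C and from 8.27 to 9.67 (median 9.45) at 30 °C. The F1 values fell into a low and a high set with nothing between 8.27 and 9.34.

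At 24 °C, replicates 1, 2 and 3 of the F1 read 8.18, 8.14 and 8.22 on that probe, and replicates 4, 5 and 6 read 9.61, 9.70 and 9.67. At 30 °C, F1 replicates 1 to 5 read 9.39, 9.67, 9.58, 9.34 and 9.50, and replicate 6 read 8.27. Thus 8 of the 12 F1 pigs lay above every CR pig and every LW pig, and the other 4 lay within the range of CR. Replicate numbers here only name pigs. The second MIC-2 probe, A_72_P172941, put the same 8 pigs between 9.20 and 9.54 and the same 4 between 7.38 and 7.68, while CR pigs ranged from 7.33 to 8.02 and LW pigs from 7.37 to 7.88.

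**Figure D1:**
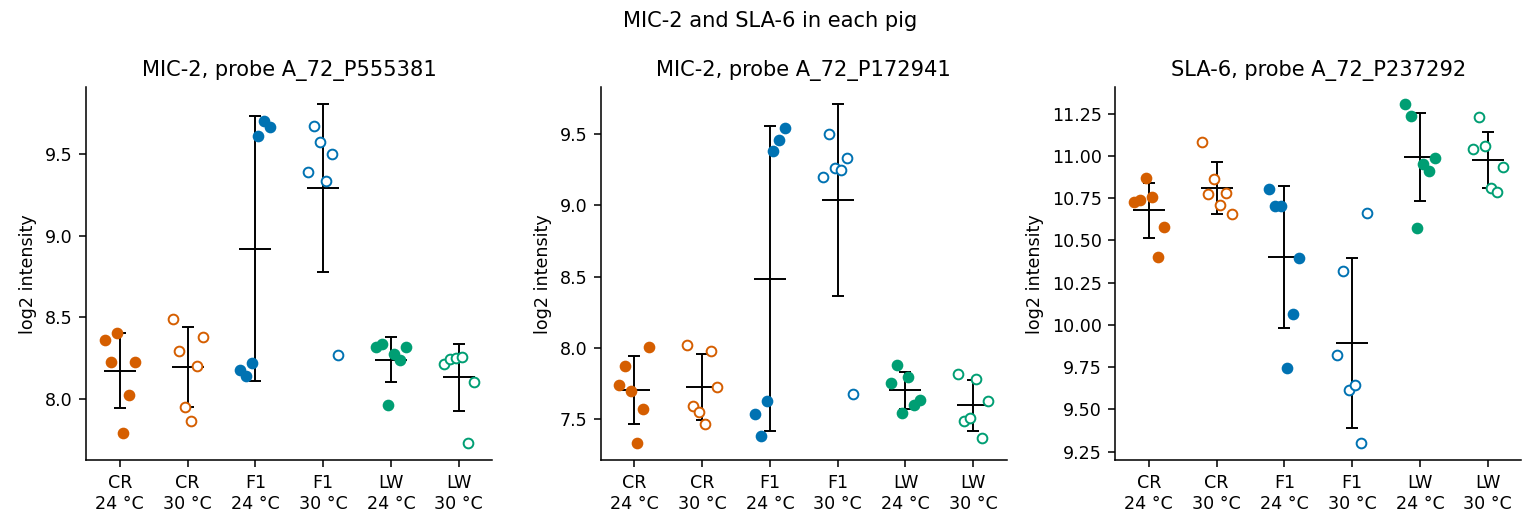
Log2 intensity of both MIC-2 probes and of the tested SLA-6 probe in every pig, by breed and labelled temperature (filled points 24 °C, open points 30 °C), with the mean (bar) and SD (whiskers) of each group of 6. On both MIC-2 probes 8 of the 12 F1 pigs lie above all CR and LW pigs. On the SLA-6 probe 8 of the 12 F1 pigs lie below all CR and LW pigs, the highest of them by a narrow margin.

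As a mean over all 12 F1 pigs, MIC-2 A_72_P555381 was 0.92 ± 0.17 (SE) above CR on the log2 scale, or 1.89-fold (adjusted p = 0.0014, limma, Benjamini-Hochberg over 46222 probes), and 0.92 ± 0.17 above LW (adjusted p = 0.0016). Probe A_72_P172941 was 1.05 ± 0.21 above CR (adjusted p = 0.0037) and 1.11 ± 0.21 above LW (adjusted p = 0.0026). Against the mean of the parental breeds the differences were 0.92 ± 0.15 and 1.08 ± 0.18. LW and CR were not called different, at 0.0017 (95% interval -0.34 to 0.34) and -0.06 (-0.49 to 0.37). These means describe no single F1 pig, since the F1 values lay at 2 separate levels.

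SLA-6 ran the other way in the same pigs. On probe A_72_P237292 the CR pigs ranged from 10.40 to 10.87 (median 10.73) at 24 °C and from 10.65 to 11.09 (median 10.78) at 30 °C. The LW pigs ranged from 10.57 to 11.31 (median 10.97) at 24 °C and from 10.79 to 11.23 (median 10.99) at 30 °C. The F1 pigs ranged from 9.75 to 10.80 (median 10.55) at 24 °C and from 9.30 to 10.66 (median 9.73) at 30 °C. The 4 F1 pigs that were low on MIC-2 read 10.80, 10.71, 10.71 and 10.66 on SLA-6, inside the CR range. The 8 that were high on MIC-2 read between 9.30 and 10.39, below every CR and LW pig, and were spread more widely than on MIC-2. The margin was narrow, with the highest of the 8 at 10.395 and the lowest CR pig at 10.402. The widest gap among the F1 pigs on SLA-6 lay between 9.30 and 9.62, not between these sets.

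The F1 mean of SLA-6 was lower than that of CR by a log2 difference of -0.60 ± 0.13 (SE; adjusted p = 0.0074, limma) and lower than that of LW by -0.84 ± 0.13 (adjusted p = 0.00037). Relative to the mean of the parental breeds the difference was -0.72 ± 0.11, with an adjusted p of 0.0009, the same as for MIC-2 A_72_P555381. MIC-2 and SLA-6 were the only members called in that comparison, with 3 of 40 member probes called, 2 higher and 1 lower, where 0.439% of all tested probes were called. The same 3 probes were the members called between F1 and LW, where 1.99% of all tested probes were called. No correlation over all 36 pigs is given for this pair, because the pigs formed separate clusters. The pairing of a high MIC-2 value with a low SLA-6 value rests on F1 pigs alone.

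**Figure D2:**
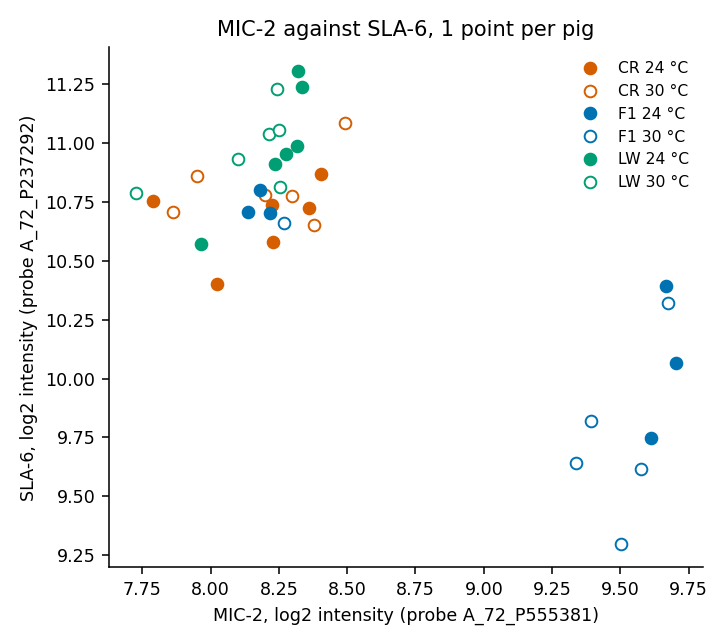
Log2 intensity of MIC-2 (horizontal axis, probe A_72_P555381) against SLA-6 (vertical axis, probe A_72_P237292), 1 point per pig, coloured by breed, with filled points for 24 °C and open points for 30 °C. The 8 F1 pigs at the lower right have MIC-2 between 9.34 and 9.70 and SLA-6 between 9.30 and 10.39, and the 4 other F1 pigs lie among the CR and LW pigs.

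The F1 calls of both genes were kept when any single pig was left out. With 8 of 12 F1 pigs outside both parental ranges, 1 pig could hardly change the call. Leaving out 1 pig also removes no litter, so dependence on litters was not tested. With each pig left out in turn, the F1 minus CR difference of MIC-2 A_72_P555381 lay between 0.86 and 1.01 and the F1 minus LW difference of SLA-6 between -0.89 and -0.76, and every such fit kept the call. Within slides, the MIC-2 difference from CR on this probe ran from -0.11 on slide 5 to 1.53, and slide 5 held 4 arrays in all. That of SLA-6 from CR ran from -0.77 to 0.0061, the last again on slide 5. With slide as a term in the fit the MIC-2 difference was 0.93 and still called.

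SLA-3, a classical heavy chain gene, was higher in LW than in CR. All 8 of its probes had a positive LW minus CR difference, from 0.29 to 1.61, and 4 were called. Over all members, 7 of 40 probes were called in that comparison, or 17.5%, all higher in LW, where 12.9% of all tested probes were called and 7.16% were called higher in LW. The 7 were 4 probes of SLA-3, 2 of SLA-8 and 1 of TAP2. The median difference over the 40 member probes was 0.16, beside a median near 0 over all tested probes. Those 40 probes belong to 9 genes and some overlap, so this median counts some genes many times and is only a description.

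On SLA-3 A_72_P625308 the CR pigs ranged from 12.94 to 14.14 (median 13.99) at 24 °C and from 12.88 to 14.71 (median 13.03) at 30 °C. The LW pigs ranged from 14.77 to 15.51 (median 14.89) at 24 °C and from 14.53 to 15.24 (median 14.90) at 30 °C. The F1 pigs ranged from 13.85 to 14.97 (median 14.65) at 24 °C and from 13.91 to 14.65 (median 14.56) at 30 °C. Of the 12 LW pigs, 10 lay above every CR pig, and the remaining overlap came from a single CR pig, replicate 5 at 30 °C, at 14.71. On this probe the CR pigs themselves lay in a lower and a higher set, given below. The LW minus CR difference was 1.45 ± 0.17 (SE), a 2.73-fold difference in intensity (adjusted p = 5.9e-07, limma), and the F1 minus CR difference was 1.00 ± 0.17 (adjusted p = 0.00092).

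SLA-3 A_72_P517623 gave a similar order. The CR pigs ranged from 10.05 to 12.72 with a median of 11.13 over both temperatures, the F1 pigs from 11.85 to 13.50 (median 12.68) and the LW pigs from 12.49 to 13.30 (median 12.97). The LW minus CR difference was 1.61 ± 0.25 (adjusted p = 4.1e-05, limma), and 10 of 12 LW pigs lay above every CR pig. The F1 minus CR difference was 1.27 ± 0.25 (adjusted p = 0.0034). The other called SLA-3 probes were A_72_P440386, at 0.74 ± 0.16 for LW minus CR (adjusted p = 0.0019), and A_72_P609764, at 0.70 ± 0.22 (adjusted p = 0.026). Of the 2 SLA-3 probes that list further class I transcripts, one was A_72_P440386, and the other, A_72_P683231, gave the smallest difference of the gene, 0.29 (95% interval 0.05 to 0.53, adjusted p = 0.10).

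**Figure D3:**
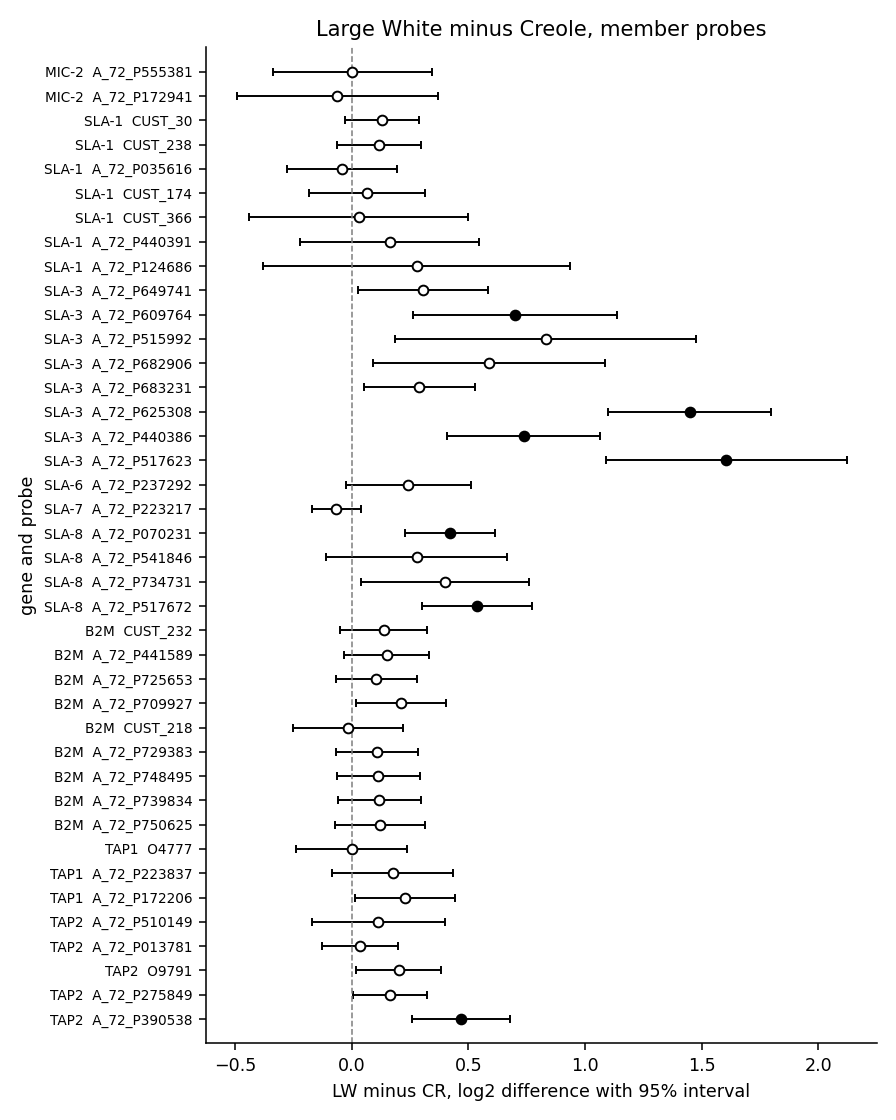
LW minus CR log2 difference (horizontal axis) with its 95% interval for each of the 40 tested member probes (vertical axis, gene and probe), filled where the adjusted p was under 0.05. All 8 SLA-3 probes lie right of 0, from 0.29 to 1.61, and the B2M probes lie between -0.02 and 0.21.

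CR pigs were not uniform on SLA-3. On A_72_P515992, 7 CR pigs read between 13.64 and 14.41 and 5 read between 15.87 and 16.64, with a gap of 1.46 between the sets, and LW pigs ranged from 15.17 to 16.28. The 5 higher CR pigs were replicates 3, 4, 5 and 6 at 24 °C, at 15.89, 15.95, 15.87 and 16.08, and replicate 5 at 30 °C, at 16.64. For this probe LW minus CR was 0.83 ± 0.32 and missed the threshold (adjusted p = 0.080, limma), while F1 minus CR was 1.10 ± 0.32 (adjusted p = 0.045) and lost its call in 18 of the 36 fits that each left out 1 pig. Probe A_72_P609764, which shares most of its bases, was 0.81 ± 0.22 higher in F1 than in CR (adjusted p = 0.029). Its call was lost in 6 of those fits, and its LW minus CR call in 2. The 5 higher CR pigs were also the higher set on A_72_P625308, A_72_P517623 and A_72_P609764. The gaps there ran from 13.30 to 13.95, from 11.19 to 12.01 and from 14.94 to 15.69. The CR means of these probes combine pigs of both sets. Other SLA-3 probes did not give these sets. A_72_P682906, identical to A_72_P625308 over 42 bases, put 6 CR pigs on each side of its widest gap. There replicate 4 at 24 °C was low (14.52), and replicates 3 and 4 at 30 °C were high (15.27 and 15.43). On A_72_P649741, A_72_P683231 and A_72_P440386 the widest gap set 1 CR pig apart from the other 11.

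Between F1 and CR, SLA-3 gave 4 called probes, all higher in F1. With the 2 MIC-2 probes and SLA-6 this made 7 of 40 member probes, 6 higher and 1 lower, where 3.38% of all tested probes were called. Both comparisons use the same CR pigs, so the SLA-3 results for LW and for F1 are not separate. None of the 8 SLA-3 probes was called between F1 and LW, with differences from -0.45 to 0.27. These means do not show that F1 and LW pigs read alike. On A_72_P515992 the F1 pigs ranged from 14.75 to 16.73, with 7 of 12 above every LW pig and 3 below every LW pig. The counts were the same on the overlapping probe A_72_P609764. On A_72_P625308 no F1 pig lay above every LW pig and 4 lay below.

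**Figure D4:**
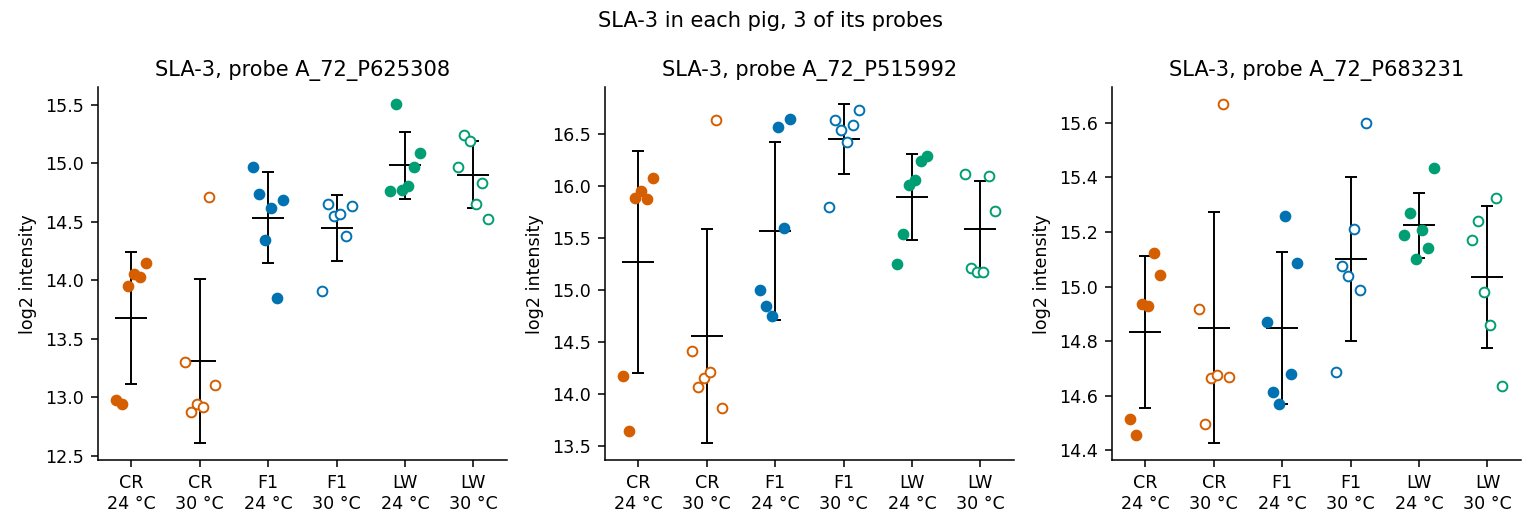
Log2 intensity of SLA-3 probes A_72_P625308, A_72_P515992 and A_72_P683231 in every pig, by breed and labelled temperature (filled points 24 °C, open points 30 °C), with the mean (bar) and SD (whiskers) of each group of 6. The CR pig with the highest value on all 3 probes is replicate 5 at 30 °C, at 14.71, 16.64 and 15.67.

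A single CR pig weighed on the breed comparison. Replicate 5 of the CR group at 30 °C read 17.84 on B2M CUST_232, against at most 17.51 in any LW pig, and it read 12.75 on SLA-1 A_72_P124686, where the other 5 pigs of its group ranged from 9.13 to 10.06. It was singled out after its values were seen, as the highest CR pig on many of these probes, so leaving it out had to raise LW minus CR. Without this pig, 15 of the 40 member probes were called higher in LW than in CR, in place of 7, where 12.6% of all tested probes were called in either direction. Those were all 8 SLA-3 probes, 3 of SLA-8, 3 of B2M and 1 of TAP2. F1 minus CR then called 10 member probes, where 3.36% of all tested probes were called.

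SLA-8, a non-classical gene, was also higher in LW. On A_72_P070231 the CR pigs ranged from 12.08 to 13.20 with a median of 12.55, the F1 pigs from 12.31 to 12.99 (median 12.80) and the LW pigs from 12.74 to 13.17 (median 12.99). The breeds overlapped, and all 12 LW pigs lay above the CR mean. The difference between LW and CR was 0.42 ± 0.10 (SE; adjusted p = 0.0026, limma), and for A_72_P517672 it was 0.54 ± 0.12 (adjusted p = 0.0017). The remaining pair of SLA-8 probes overlap each other and gave 0.28 (95% interval -0.11 to 0.67) and 0.40 (0.04 to 0.76), neither of them called. Within slides the A_72_P070231 difference ran from 0.02 to 0.77.

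SLA-1 and SLA-7 gave no call. None of the 7 SLA-1 probes was called in any comparison, with LW minus CR differences from -0.04 to 0.28. For the SLA-1 probe A_72_P440391, which differs from SLA-3 A_72_P440386 at 4 aligned bases, LW minus CR was 0.16 (95% interval -0.22 to 0.55), beside 0.74 (0.41 to 1.06) for the SLA-3 probe. The difference between those probes was not tested. The SLA-7 probe gave -0.07 (-0.17 to 0.04) for LW minus CR on the log2 scale.

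B2M, the shared light chain, had 9 probes, and none was called. LW minus CR ran from -0.02 to 0.21, with 8 of the 9 differences positive, and F1 minus LW ran from -0.20 to -0.10. On the brightest probe the CR pigs ranged from 16.73 to 17.84 (median 16.98), the F1 pigs from 16.92 to 17.39 (median 17.10) and the LW pigs from 16.87 to 17.51 (median 17.24). The breeds overlapped almost entirely. The largest of the 9 differences, 0.21 on A_72_P709927, had a 95% interval of 0.02 to 0.40 and an adjusted p of 0.15 (limma).

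The transporter genes differed by probe. TAP1 had 3 probes and no call, with LW minus CR from -0.0014 to 0.23. On TAP1 O4777 the medians were 13.24 in CR, 13.21 in F1 and 13.31 in LW, and the ranges overlapped. Of the 5 TAP2 probes, A_72_P390538 was called at 0.47 ± 0.10 (SE; adjusted p = 0.0021, limma). There the CR pigs ranged from 7.65 to 8.70 (median 8.21), the F1 pigs from 8.22 to 8.76 (median 8.44) and the LW pigs from 8.31 to 9.02 (median 8.69), and 6 of 12 LW pigs lay above every CR pig. The other 4 TAP2 probes gave 0.03 to 0.20, so the TAP2 call rests on 1 probe of 5.

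No member probe was called between 30 and 24 °C, 0 of 40, where 1.18% of all tested probes were called. At an unadjusted p under 0.05 there was 1 member probe, against 4504 of all 46222. It was SLA-7, which ranged from 6.28 to 6.63 (median 6.45) at 24 °C and from 6.31 to 6.75 (median 6.59) at 30 °C. The ranges overlapped, and the difference was 0.11 ± 0.04 (adjusted p = 0.34, limma).

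For B2M the 9 heat differences ran from -0.05 to 0.04, and no 95% interval went beyond -0.20 or 0.23. For TAP1 the intervals reached from -0.16 to 0.29, for TAP2 from -0.28 to 0.18, for SLA-3 from -0.65 to 0.48 and for SLA-1 from -0.44 to 0.80. These are the outer bounds over all probes of a gene, and for SLA-1 they came from its most variable probes, since the interval of its brightest probe, CUST_30, was -0.08 to 0.18. MIC-2 gave 0.10 and 0.15 on its probes, with intervals from -0.20 to 0.51. The F1 group at 24 °C held 3 of the 4 low MIC-2 pigs and that at 30 °C held 1.

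**Figure D5:**
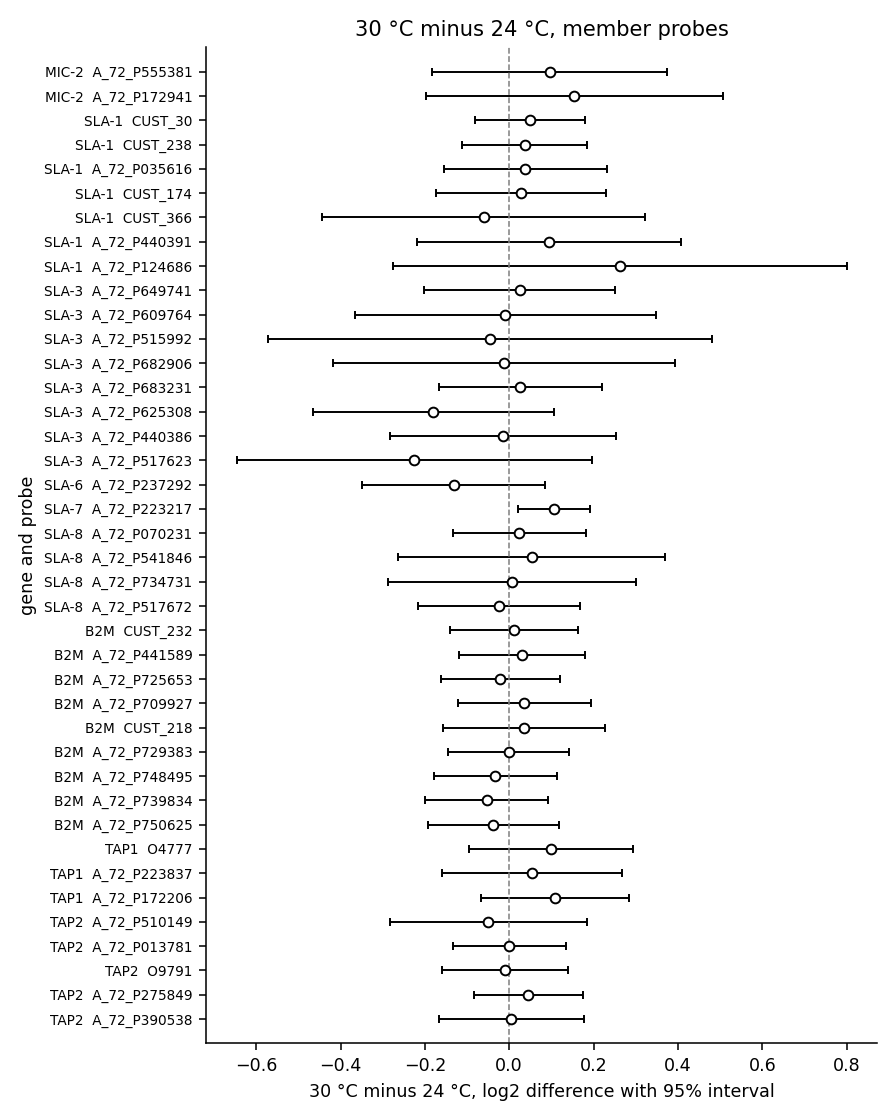
30 °C minus 24 °C log2 difference over the breeds (horizontal axis) with its 95% interval for each of the 40 tested member probes (vertical axis, gene and probe), filled where the adjusted p was under 0.05. No point is filled, and the differences lie between -0.23 and 0.26.

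The response to temperature was also compared between breeds. No interaction was called in any of the 40 member probes or in the whole table (0%), with 2 member probes and 2156 probes overall at an unadjusted p under 0.05. The 2 were SLA-3 A_72_P515992 (unadjusted p = 0.028) and SLA-6 A_72_P237292 (unadjusted p = 0.033), each with an adjusted p of 1.00 (limma). For SLA-6 the heat difference was 0.13 ± 0.17 in CR, -0.51 ± 0.17 in F1 and -0.02 ± 0.17 in LW. The F1 pigs with the higher SLA-6 values were replicates 1, 2 and 3 at 24 °C and replicate 6 at 30 °C. On SLA-3 A_72_P515992 the higher CR pigs were replicates 3, 4, 5 and 6 at 24 °C and replicate 5 at 30 °C. The higher pigs were thus spread unevenly over the temperatures, and the part of this in the heat differences was not tested. No member probe was called within CR, within F1 or within LW, where 0.387%, 0.383% and 0% of all tested probes were called. All 9 B2M probes were higher at 30 °C in CR, by 0.14 to 0.23, and all 9 were lower in LW, by -0.23 to -0.11, with interaction p-values between 0.086 and 0.19 before adjustment (limma). Without the CR pig named above, replicate 5 at 30 °C, the 9 B2M differences in CR lay between -0.00049 and 0.10, and 8 were positive. That pig was singled out for its high values, so leaving it out had to lower the differences. It was not the only high pig, since on CUST_232 replicate 1 of its group read 17.495.

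Several members varied together from pig to pig. The deviations of each gene's brightest tested probe from its group mean were compared over 36 pigs in all 36 pairs of genes. Of these, 8 pairs passed an adjusted p of 0.05 for Pearson's r (permutation test). Both genes of a pair were read on the same array of the same gland, so array quality is shared by both. The share of passing pairs among other genes is not given, so the count is not particular to the members. B2M and TAP1 gave r = 0.81 (permutation p = 1e-05, the smallest that 100000 resamples can give, adjusted p = 0.00018) and Spearman's rho = 0.77 (adjusted p = 0.00036), and r was 0.81 without the 2 pigs farthest from the B2M median. SLA-1 and B2M gave r = 0.81 (adjusted p = 0.00018, permutation test) and rho = 0.76 (adjusted p = 0.00036), and r was 0.73 without the 2 farthest pigs. With slide means removed as well, the values of r for these pairs were 0.85 and 0.83. The pairing of B2M with TAP2 gave r = 0.54 (adjusted p = 0.046, permutation test) but rho = 0.43 (adjusted p = 0.097), and r fell to 0.36 without the 2 farthest pigs.

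SLA-3 and SLA-8 gave r = 0.72 (adjusted p = 0.0016, permutation test) and rho = 0.55 (adjusted p = 0.016), with r = 0.67 without the 2 farthest pigs. The other passing pairs were SLA-1 with SLA-3, SLA-1 with TAP1, SLA-3 with B2M and SLA-3 with TAP1, with r from 0.50 to 0.60. Without the 2 farthest pigs these fell to between 0.34 and 0.52, so they rest in part on few pigs. The pairs with MIC-2 or SLA-6 were among the 36 but are not described, because of the clusters among F1 pigs. Littermates are not independent points, so these p-values may be too small as well.

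Other genes of the pathway were read on a list of their own, by the brightest tested probe of each gene. Of the regulators of class I transcription, NLRC5, the master activator of class I genes, and IRF1, a transcription factor induced by interferon, were not called in any of the 5 comparisons. Of the 6 genes of peptide supply tested, PSME1, an activator of the proteasome, was lower in LW than in CR by a log2 difference of -0.23 ± 0.05 (adjusted p = 0.0019, limma), on 1 of its 3 probes. Of the 4 peptide loading genes tested, 3 were lower in LW. CALR, the chaperone calreticulin, gave -0.34 ± 0.07 (adjusted p = 0.00095) with all 3 of its probes called, CANX, which codes for calnexin, gave -0.26 ± 0.06 (adjusted p = 0.0035) with 2 of 3, and PDIA3, a disulfide isomerase of the loading complex, gave -0.30 ± 0.08 (adjusted p = 0.008) with 1 of 2. TAPBP, which codes for tapasin and bridges the heavy chain to the transporter, gave -0.14 ± 0.14 and was not called. The median over the 4 was -0.28, in the direction opposite to SLA-3 and SLA-8, and none of these genes was called between F1 and CR, between F1 and LW or by temperature.

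Markers of other cell types were set beside the breed differences. None of the 3 leucocyte, 7 T cell, 5 natural killer cell, 3 B and plasma cell and 5 macrophage genes tested was called in any of the 5 comparisons on its brightest probe, nor was any of 4 follicular cell genes and 3 class I-like genes outside the members. On other probes, GZMB, a granzyme of cytotoxic cells, had 1 of 3 probes called between LW and CR, and FCGRT, the class I-like neonatal Fc receptor, had 1 of 4 called between LW and CR and between F1 and CR. By the same measure SLA-3 would not count as called, since its brightest probe, A_72_P649741, was not. The natural killer cell list had a mean log2 value between 7.52 and 8.05 in CR pigs, between 7.66 and 8.08 in F1 pigs and between 7.79 and 8.24 in LW pigs. That of the T cell list ranged from 8.20 to 9.17 in CR pigs, from 8.34 to 8.90 in F1 pigs and from 8.49 to 9.10 in LW pigs. KLRK1, of the natural killer cell list, gave 0.44 ± 0.15 for LW minus CR, just over the threshold (adjusted p = 0.055, limma). For LW minus CR the genes of that list ran from -0.02 to 0.44, and the T cell genes from -0.09 to 0.36. The absence of a call therefore does not show equal levels, and the part of these cells in the SLA-3 and SLA-8 differences was not tested. Of the 4 endothelial genes, KDR, PECAM1 and CDH5 were called higher in LW than in CR. VWF was lower in LW, at -0.12, and was not called. KDR, a receptor for vascular growth factor, differed by 0.73 ± 0.10 (adjusted p = 4.4e-06, limma) with 1 of its 3 probes called. Between F1 and CR, 1 of the 4 genes was called, higher in F1, and the largest difference there was 0.51, for KDR. The endothelial list mean ranged from 11.94 to 12.55 in CR and from 12.36 to 12.77 in LW. The part of the endothelium in the SLA-3 and SLA-8 differences was not tested. None of the 5 interferon response genes was called, with LW minus CR differences from -0.01 to 0.53 and F1 minus CR differences from 0.18 to 0.69.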

How the data were processed

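Scanner files of 36 arrays held, per the file headers, mean, median, background and processed spot intensity, extracted with Agilent Feature Extraction 10.10.1.1 per the labels. The authors took the median intensity, quantile-normalized it and deposited it as log2 values. The same steps were remade here from the scanner files: 1319 control spots per array were left out, 106 non-uniform spots were set to missing, and 46222 probes that were well above background in 5 or 6 pigs of some group were tested with limma 3.58.1 (R 4.3.3), breed plus temperature, Benjamini-Hochberg over all tested probes, threshold 0.05. The interaction came from the 6 group means. No spot was saturated, and between 72.8% and 80.3% of an array's probes were well above background. The model was tested on simulated data. Arrays have no read depth, so their number limits the precision. Arrays lay on 5 slides.

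Members and gene lists were chosen with earlier results of these data known. All members were named. A gene's reference probe was its brightest tested probe, and called probes and the probe with the largest LW minus CR difference were added. Of the other pathway and class I-like genes, called ones were named, at most 6 per comparison, and some that were not called were named as well. Correlation coefficients came from SciPy 1.17.1, and their permutation tests were computed with NumPy 2.4.6. Alternatives were 75th percentile scaling of median or processed intensity, normexp with offset 50, the deposited values, other dim filters, slide as a term or block, within-slide differences, temperature alone, the median probe and leaving out each array. Pen, slaughter day, sire and dam were not used.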

Additional observations from a re-analysis of the deposited data

Results flagged for a closer look

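In 120 sets of 6 values (20 member probes, 6 groups), 14 had 1 pig far from the other 5 by the ratio of its gap to the range of the group. Among independent sets of normally distributed values the measure would mark about 1 in 20, or 6 of 120. That number is no test of the 14, because these sets are not independent. Several probes read the same gene in the same pigs, some of them overlap, and some had values at separate levels within a breed. Some of the probes were also chosen by their results on these same arrays. The ratios are given with the pig they belong to, and no cause was tested.

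Replicate 6 of the F1 group at 30 °C lay below its group on both MIC-2 probes, with ratios of 0.83 (A_72_P172941, 7.68 against 9.20 to 9.50) and 0.76 (A_72_P555381, 8.27 against 9.34 to 9.67). It is 1 of the 4 F1 pigs at the lower MIC-2 level, and at 24 °C, where 3 of 6 pigs were at that level, no pig stood apart by this measure. On A_72_P555381 LW replicate 3 at 24 °C (7.96) and LW replicate 5 at 30 °C (7.73) were low, with ratios of 0.73 and 0.71.

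Replicate 5 of the CR group at 30 °C was the highest of its group on SLA-1 A_72_P124686 (0.74) and on 5 SLA-3 probes, A_72_P515992 (0.80), A_72_P625308 (0.77), A_72_P609764 (0.76), A_72_P649741 (0.64) and A_72_P440386 (0.63). All were read in the same pig, all but 1 are named for SLA-3, and A_72_P609764 and A_72_P515992 overlap, so they are not separate observations. Replicate 1 of the F1 group at 30 °C was the lowest on SLA-3 A_72_P515992 (0.67) and A_72_P625308 (0.63). CR replicate 6 at 30 °C was the highest on SLA-7 (0.81, 6.73 against 6.59 to 6.61), and LW replicate 1 at 24 °C was the highest on TAP1 A_72_P172206 (0.73, 7.60 against 7.06 to 7.20).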

How the results depend on the processing

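The number of member probes called stayed within 1 of 0 for heat, 7 for LW minus CR, 7 for F1 minus CR, 3 for F1 minus LW and 3 for F1 minus the parental mean under every other scaling, background correction, filter and slide setting. Leaving out each array in turn gave 6 to 15 member probes for LW minus CR (15 only without CR replicate 5 at 30 °C) and 5 to 10 for F1 minus CR. Over all probes, slide as a random block called 314 for F1 minus the parental mean, in place of 203. Within single slides a few called differences changed sign: for MIC-2 on slide 5, -0.050 (A_72_P172941, F1 minus CR), -0.11 (A_72_P555381, F1 minus CR) and -0.0085 (A_72_P555381, F1 minus LW), for SLA-6 A_72_P237292 on slide 5, 0.0061 (F1 minus CR), and for SLA-3 A_72_P440386 on slide 4, -0.10 (LW minus CR). A slide holds 4 or 8 arrays, and these values carry no test. SLA-3 A_72_P515992 was not called for F1 minus CR with processed intensity (adjusted p = 0.051, limma) or with no dim filter (0.056). No paired analysis was possible because the labels number no replicates, and numbers in accession order only name pigs.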
